A study of Mus musculus with 4 samples.

Results

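Inhibitory checkpoint receptors are surface proteins that dampen T cell activation. The set described here holds 10 genes, found on the array by their symbols: Ctla4, Pdcd1, Tigit, Lag3, Havcr2, Btla, Cd160, Vsir, Cd96 and Cd200. All 10 were on the array, each with 1 transcript cluster (the array's unit for a gene), among 30492 genes that could be named and tested. The cells were regulatory T cells taken from spleens at an age of 7 to 8 weeks, enriched for CD4 and sorted for green fluorescence, with 15000 to 40000 cells per sample. In both groups the fluorescent protein and Cre recombinase are made together from the transgene B6-Tg(Foxp3EGFP-cre)1cJbs/J, which is driven by Foxp3 control sequences. The group labelled WT carried that transgene on C57BL/6 (replicates 1 and 3), and the group labelled KO combined it with a BMI1-flox allele on the same background (replicates 1 and 2). Cre therefore acts in cells that have turned the transgene on, and the labels do not say how completely the allele was deleted, or whether animals were pooled. Whether the cells were resting is not settled: sample titles and the treatment field call them unstimulated, but the text on the series mentions antibodies to CD3 and CD28 for 24 h.

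BMI1 is a subunit of Polycomb repressive complex 1, which modifies histones and keeps genes silent. Some checkpoint receptors work by competing for the ligands of activating receptors or by recruiting phosphatases through tyrosine motifs in their tails. Regulatory T cells are known for carrying several checkpoint receptors at rest, CTLA-4 above all. CTLA-4 is one of the molecules through which regulatory T cells restrain other cells. CD200 is the exception in the set, because it is a ligand whose inhibitory receptor, encoded by Cd200r1, sits on the opposite cell.

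The values are log2 expression, so a difference of 1 is a doubling. They were compared as labelled KO minus labelled WT in limma over all genes, with Benjamini-Hochberg adjustment and a threshold of 0.05. Separate animals are not named for the replicates, so a p-value here reflects only how far these arrays spread, which may be technical, and 4 arrays limit the precision. With 2 arrays in each group, the smallest two-sided p of an exact permutation test is 0.333. The targeted gene went against its label: Bmi1 read 8.98 and 8.98 in the arrays labelled WT and 9.58 and 9.91 in those labelled KO (limma adjusted p 0.300). Which part of Bmi1 its cluster covers is not given in the sources used here, so directions below rest on the labels alone. Array medians over all clusters lay between 4.65 and 4.72, and Pearson's r between arrays, across clusters that are not independent replicates, lay between 0.991 and 0.994. The table has no detection call, so the 1221 odorant receptor genes, which T cells are not known to use, served as a rough reading of signal without expression. Their 95th percentile lay between 5.0 and 5.18 across the 4 arrays. The cell label was checked against markers: 9 of 10 measured regulatory T cell markers and 7 of 7 T cell markers lay above that reading on all 4 arrays, among them Il2ra and Ikzf2. Levels within that list were not all alike: Lrrc32 read 12.05 and 12.28 in the arrays labelled WT and 11.18 and 10.48 in those labelled KO, and Gpr83 read 11.88 and 11.07 against 12.51 and 12.74. Their limma adjusted p were 0.298 and 0.354, and their part in the results below was not tested. Foxp3 shares its cluster with other genes and has no value here.

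No checkpoint gene passed the threshold in limma: 0 of 10 rose and 0 fell, against 0.00656% of all genes called. One gene, Btla, had an unadjusted limma p under 0.05, against 10.1% of all genes. Of the 10 genes, 8 had a positive and 2 a negative difference, beside 15549 and 14645 of the 30492 genes tested. The median of the 10 was 0.06, beside 0.005 over all genes tested. After a further quantile normalization the median was 0.0041 and the split was 6 positive and 4 negative. Btla was lower in both arrays labelled KO, Tigit, Cd200 and Cd160 were low in 1 array labelled WT, and the other 6 genes differed by 0.15 or less in either direction.

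**Figure D1:**
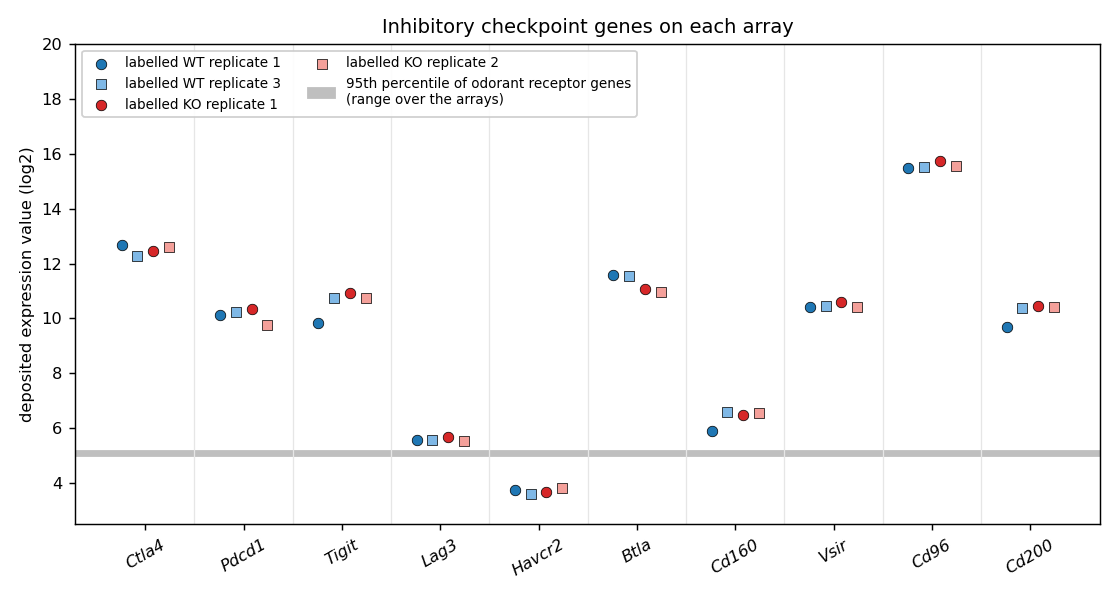
Deposited log2 value of each checkpoint gene (horizontal axis) on each of the 4 arrays (circles and squares, blue for labelled WT and red for labelled KO). The grey band spans the 95th percentile of odorant receptor genes over the arrays, 5.0 to 5.18. Havcr2 lies below it on every array and Btla is the gene whose red points sit clearly under its blue ones. Heights of different genes come from different probes and are not comparable.

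Btla encodes an immunoglobulin-family receptor that binds HVEM and recruits phosphatases through its tail. It read 11.57 and 11.55 in the arrays labelled WT and 11.06 and 10.98 in those labelled KO. Both arrays labelled KO were lower, and the groups were further apart than the arrays within either, which differed by 0.02 and 0.08. The difference was -0.54 (SE 0.11), a level 1.45-fold higher in the arrays labelled WT (95% interval 1.19 to 1.78, limma adjusted p 0.305). Its unadjusted limma p of 0.00482 compares with 3.76% of all genes that were lower in the arrays labelled KO with such a p under 0.05. The difference lay between -0.58 and -0.50 when any 1 array was left out. It was -0.62 after a further quantile normalization and -0.545 after median-centring of the arrays. The other alternatives that kept all arrays cannot change the difference of a gene with 1 cluster. B cells are also known for Btla, so B cell markers are given beside it: 7 of 9 measured markers lay below the background reading on all 4 arrays, Ms4a1 and Pax5 among them. The mean of the B cell list was 4.79 and 4.90 in the arrays labelled WT and 4.74 and 4.89 in those labelled KO. Cd79b was the 1 marker above the reading on every array, at 7.53 and 7.91 against 7.42 and 7.64. Cd22 was above it on 3 arrays, at 5.12 and 5.82 against 5.23 and 5.66. Cd72, a gene of another list that is also known from B cells, is given below. The part of these markers in the Btla values was not tested. In bulk samples such as these, fewer cells of a type and less RNA per cell cannot be told apart.

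The HVEM gene Tnfrsf14, whose product binds both BTLA and CD160, read 9.53 and 9.74 in the arrays labelled WT and 10.08 and 9.38 in those labelled KO, with overlapping groups. Cd160, a lipid-anchored receptor known from natural killer cells and CD8 T cells, read 5.91 and 6.59 in the arrays labelled WT and 6.47 and 6.57 in those labelled KO. Only WT replicate 1 stood apart, and the other 3 arrays lay within 0.12 of each other. The difference of 0.27 (SE 0.24, limma adjusted p 0.787) became -0.07 without WT replicate 1. Markers of those other cells were mixed. Cd8a (4.07 to 4.23) and Ncr1 (4.02 to 4.23) lay below the background reading on all 4 arrays. Nkg7, a granule protein gene of cytotoxic cells, read 10.48 and 11.09 in the arrays labelled WT and 11.58 and 12.31 in those labelled KO. Cd8b1 read 9.74 and 10.78 against 10.71 and 11.26. Both were lowest in WT replicate 1, as Cd160 was, and their part in its values was not tested. Of the 7 measured natural killer cell markers, 2 lay above the reading on all 4 arrays, Nkg7 and Eomes. The list mean ran from 5.63 to 5.84 in the arrays labelled WT and from 5.92 to 6.18 in those labelled KO. Nkg7 and Eomes had differences of 1.16 and 1.075, whereas those of Ncr1, Klrb1c, Klrk1, Klre1 and Gzma lay between -0.125 and 0.13.

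Tigit had the largest positive difference of the set. It encodes a receptor that binds the nectin-like protein PVR and competes for it with the activating receptor CD226. The values were 9.82 and 10.76 in the arrays labelled WT and 10.93 and 10.73 in those labelled KO. The groups overlap, since WT replicate 3 exceeded KO replicate 2, and the 2 arrays labelled WT were 0.94 apart. The difference of 0.54 had a standard error of 0.32 and a 95% interval of -0.28 to 1.36 (limma adjusted p 0.657). It was 0.07 without WT replicate 1 and 1.01 without WT replicate 3. Cd96, a receptor of the same ligand family, read 15.48 and 15.53 in the arrays labelled WT and 15.74 and 15.56 in those labelled KO. The groups do not overlap, which holds with the arrays labelled KO higher for 20.9% of all genes, but the difference was 0.15 (SE 0.09, limma adjusted p 0.652) and turned to -0.04 after a further quantile normalization. Cd226 read 12.42 and 12.38 against 12.26 and 12.47, and Pvr read 7.44 and 7.64 against 7.71 and 7.65. The groups overlap for Cd226. For Pvr they were 0.01 apart at their nearest, with a difference of 0.14 (SE 0.13, limma adjusted p 0.807).

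Cd200 read 9.68 and 10.37 in the arrays labelled WT and 10.44 and 10.42 in those labelled KO. WT replicate 1 was again the low array, and WT replicate 3 lay 0.05 below the lower array labelled KO. The difference of 0.41 (SE 0.25, limma adjusted p 0.664) fell to 0.06 without WT replicate 1 and was 0.75 without WT replicate 3. Cd200r1, the gene of its receptor, was lower in both arrays labelled KO whether or not WT replicate 1 was used. It read 8.02 and 8.21 in the arrays labelled WT and 7.27 and 7.18 in those labelled KO. The difference was -0.89 (SE 0.13), 1.85-fold higher in the arrays labelled WT (95% interval 1.46 to 2.35, limma adjusted p 0.255). Leaving out any 1 array kept it between -0.98 and -0.80.

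**Figure D2:**
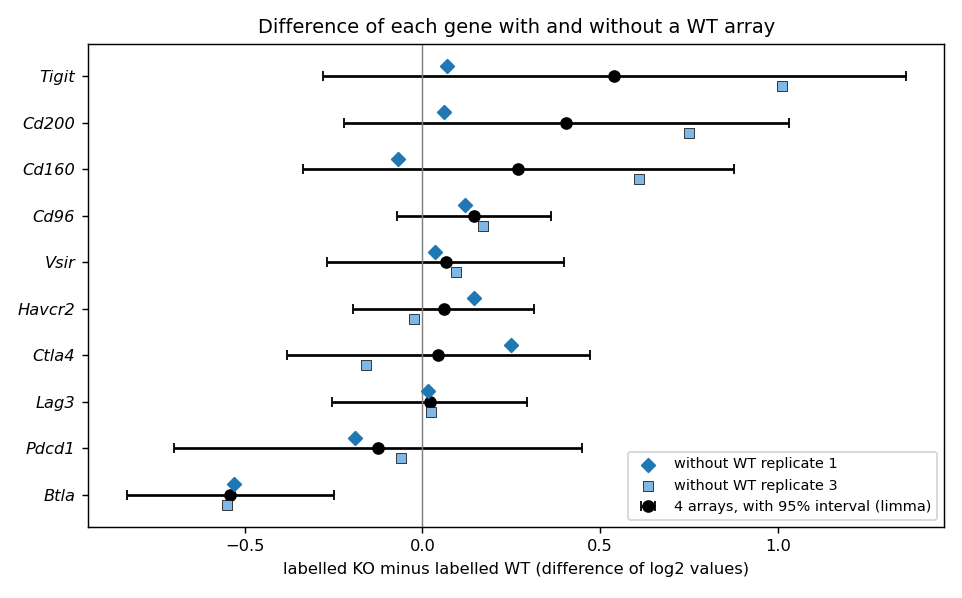
Difference of each checkpoint gene, labelled KO minus labelled WT on the log2 scale (horizontal axis). Black points are the fit on 4 arrays with its 95% limma interval, dark blue diamonds leave out WT replicate 1 and light blue squares leave out WT replicate 3. Tigit, Cd200 and Cd160 come to 0.07, 0.06 and -0.07 without WT replicate 1, while Btla stays near -0.54.

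The low readings of WT replicate 1 were counted after the values had been seen. It was the lowest array for 5 of the 10 genes, against 24.3% of all genes, and for 3 of them it lay at least 0.5 below the next array. Across all genes WT replicate 1 did so for 0.518%. No checkpoint gene had such a gap in WT replicate 3, KO replicate 1 or KO replicate 2, where the shares of all genes were 0.63%, 0.236% and 0.446%. Among the 14188 genes above the background reading on all 4 arrays, the share was 0.98% for WT replicate 1, 1.02% for WT replicate 3, 0.374% for KO replicate 1 and 0.733% for KO replicate 2, so WT replicate 1 was not the array with the most such genes. The gaps were 0.91 for Tigit, 0.69 for Cd200 and 0.56 for Cd160. All 7 T cell markers were lowest in WT replicate 1 too, but by 0.25 or less. Their list means were 15.10 and 15.24 in the arrays labelled WT and 15.41 and 15.31 in those labelled KO. For 4 of the 7 the groups do not overlap, with the arrays labelled KO higher, as for 20.9% of all genes. Cd3e, 1 of those 4, read 16.28 and 16.32 against 16.91 and 16.82. Of 8 plasma cell markers, 4 lay above the background reading on all 4 arrays. In this list 7 were lowest in WT replicate 1, with list means of 6.16 and 6.32 against 6.56 and 6.51. Among those 7, Mzb1, Sdc1, Derl3 and Tnfrsf17 lay below the background reading on all 4 arrays. Jchain, above it on all 4, was lowest in WT replicate 3, at 6.62 and 6.47 against 7.66 and 7.49. The part of these markers in the result was not tested. Neutrophil and erythroid markers lay below the reading on all 4 arrays for 6 of 8 and 3 of 3 measured genes. WT replicate 1 was lowest for 0 of these 8 and 0 of these 3, and for 0 of 7 dendritic cell markers. It was lowest for 3 of 10 regulatory T cell, 2 of 9 B cell and 2 of 11 macrophage and monocyte markers. For natural killer cell and CD8 T cell markers the counts were 4 of 7 and 1 of 2.

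**Figure D3:**
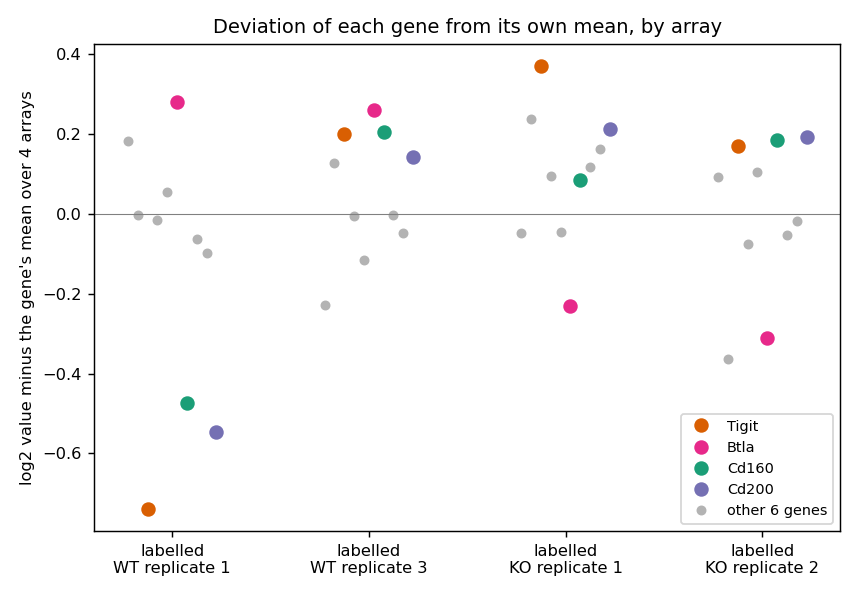
Each checkpoint gene's log2 value minus its own mean over the 4 arrays (vertical axis), by array (horizontal axis), with 4 genes in colour and the other 6 in grey. Tigit, Cd200 and Cd160 lie -0.74, -0.55 and -0.48 from their means in WT replicate 1 and above them in the other 3 arrays, whereas Btla changes sides between the groups.

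Ctla4 encodes the receptor that outcompetes CD28 for CD80 and CD86 and strips them from antigen-presenting cells. It read 12.68 and 12.27 in the arrays labelled WT and 12.45 and 12.59 in those labelled KO. Both arrays labelled KO lay between the arrays labelled WT. The 95% interval in fold ran from 0.768 to 1.39, and a difference inside that range could not be told from none at this spread. Cd28, the activating counterpart, read 9.55 and 9.45 against 9.47 and 9.35. Pdcd1, the gene of PD-1, read 10.11 and 10.24 in the arrays labelled WT and 10.35 and 9.75 in those labelled KO. KO replicate 2 was the low array, and without it the difference of -0.12 (SE 0.23, limma adjusted p 0.911) became 0.17. The PD-1 ligand gene Cd274 read 9.32 and 9.19 against 9.48 and 9.23, with overlapping groups.

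Vsir encodes VISTA, a receptor known for keeping resting T cells quiescent. It read 10.41 and 10.47 in the arrays labelled WT and 10.59 and 10.42 in those labelled KO. The groups overlap, and the 95% interval in fold was 0.831 to 1.32 (limma adjusted p 0.923). The array's annotation lists this gene under an older name, and it was matched through its gene identifier. Lag3, a receptor of MHC class II, read 5.58 and 5.59 against 5.69 and 5.52. These values lay only a little above the background reading of their own arrays, on all 4. Havcr2, the gene of TIM-3, read 3.76 and 3.59 against 3.66 and 3.81, below the 95th percentile of odorant receptor genes on every array and close to their medians of 3.78 to 3.88. For Havcr2 the arrays therefore give no level that can be told from background, and its difference of 0.06 has no reading as expression. Lag3 and Havcr2 are known as receptors that T cells gain on activation.

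The promoter sequences of the 3 genes with the largest differences in either direction (Btla, Tigit and Cd200), and of Ctla4 and Vsir with small ones, are shown because Polycomb complexes are best known at gene starts rich in CpG dinucleotides. Each line gives the 250 bases before the start site in mouse assembly GRCm38.p6 from RefSeq, 5′ to 3′ on the gene's strand, with CpG dinucleotides in capitals. These are reference sequences and no chromatin was measured here. For Btla and Tigit, RefSeq also holds predicted transcripts that begin further upstream.
Btla, chr16:45224087-45224336, plus strand: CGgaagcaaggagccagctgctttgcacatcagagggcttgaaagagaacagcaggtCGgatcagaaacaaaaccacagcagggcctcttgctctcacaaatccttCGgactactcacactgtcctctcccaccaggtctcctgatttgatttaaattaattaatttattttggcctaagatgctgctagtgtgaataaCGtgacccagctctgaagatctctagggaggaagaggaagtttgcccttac
Tigit, chr16:43664185-43664434, minus strand: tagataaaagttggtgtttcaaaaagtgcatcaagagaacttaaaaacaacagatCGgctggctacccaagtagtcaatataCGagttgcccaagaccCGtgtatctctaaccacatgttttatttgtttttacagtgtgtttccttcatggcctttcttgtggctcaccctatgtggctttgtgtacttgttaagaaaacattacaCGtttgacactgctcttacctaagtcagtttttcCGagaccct
Cd200, chr16:45409054-45409303, minus strand: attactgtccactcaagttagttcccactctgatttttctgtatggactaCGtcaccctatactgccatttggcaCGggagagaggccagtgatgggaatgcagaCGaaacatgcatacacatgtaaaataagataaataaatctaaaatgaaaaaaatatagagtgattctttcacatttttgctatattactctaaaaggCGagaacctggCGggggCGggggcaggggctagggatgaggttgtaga
Ctla4, chr1:60908775-60909024, plus strand: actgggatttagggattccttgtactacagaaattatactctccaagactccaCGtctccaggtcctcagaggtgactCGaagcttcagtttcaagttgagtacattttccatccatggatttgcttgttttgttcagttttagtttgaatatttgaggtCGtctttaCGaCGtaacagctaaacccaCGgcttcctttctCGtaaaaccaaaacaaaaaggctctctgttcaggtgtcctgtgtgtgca
Vsir, chr10:60346601-60346850, plus strand: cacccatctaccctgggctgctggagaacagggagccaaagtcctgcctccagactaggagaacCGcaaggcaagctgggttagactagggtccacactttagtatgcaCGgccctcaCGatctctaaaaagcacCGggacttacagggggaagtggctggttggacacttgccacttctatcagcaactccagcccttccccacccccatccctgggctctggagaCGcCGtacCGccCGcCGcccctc

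CpG counts in these windows lay close to the median. Btla held 4 CpG, Tigit 5, Cd200 6, Ctla4 7 and Vsir 9, against a median of 6 over all 32851 windows of this length. As many CpG as in Vsir were found in 40.3% of all windows, and as many as in Btla in 62.2%. The remaining matched genes ranged from 2 in Havcr2 to 5 in Cd160, with 3 each in Pdcd1 and Cd96, and 9 of the 10 genes had a window. Lag3 was not matched. A search on both strands for the letters TGTGGT, the core of RUNX sites, found a match in 5 of 9 genes (Tigit, Havcr2, Btla, Cd160 and Cd96), against 14% of all windows. The letters GGAAGT, an ETS core, were in 4 of 9 (Havcr2, Btla, Cd160 and Vsir) against 19.7%, and in Btla they lay 16 bases before the start. GGAAA, the NFAT core, was in 5 of 9 (Ctla4, Pdcd1, Tigit, Cd160 and Cd96) against 55.6%. The forkhead letters TGTTTNC were in Tigit, against 17.8% of windows, with 1 of its 2 matches overlapping an NFAT match. TGANTCA (AP-1) was in Havcr2 alone against 6.75%, TGACGT (CRE) in Cd200 alone against 6.47%, and CACGTG (E-box) in 0 of 9 against 6.02%. Cd160 had 2 windows and was counted once. These matches describe the letters only.

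Tigit, Btla, Cd200 and Cd96, 4 of the 10, lie on mouse chromosome 16, which holds 3.09% of the genes tested. Cd80, Cd86 and Cd200r1 lie on it too. Btla and Cd200 are next to each other among protein-coding genes of the RefSeq order. Btla had a difference of -0.54 (SE 0.11) and Cd200 of 0.41 (SE 0.25), the latter 0.06 without WT replicate 1. Atg3, an autophagy gene on the other side of Btla, read 10.89 and 11.10 in the arrays labelled WT and 11.06 and 11.03 in those labelled KO, with a difference of 0.05 (SE 0.13). Of the 16 nearest protein-coding genes, 8 on each side, 6 lay above the background reading on all 4 arrays. An unadjusted limma p under 0.05 was found for 1 of the 16, no more than the 10.1% of all genes, and that was Cd200r1, the 7th gene before Btla. Its relatives Cd200r4, Cd200r2 and Cd200r3 lay between the 2 genes and below the background reading on all 4 arrays. This neighbourhood was examined after the values of Btla had been seen.

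**Figure D4:**
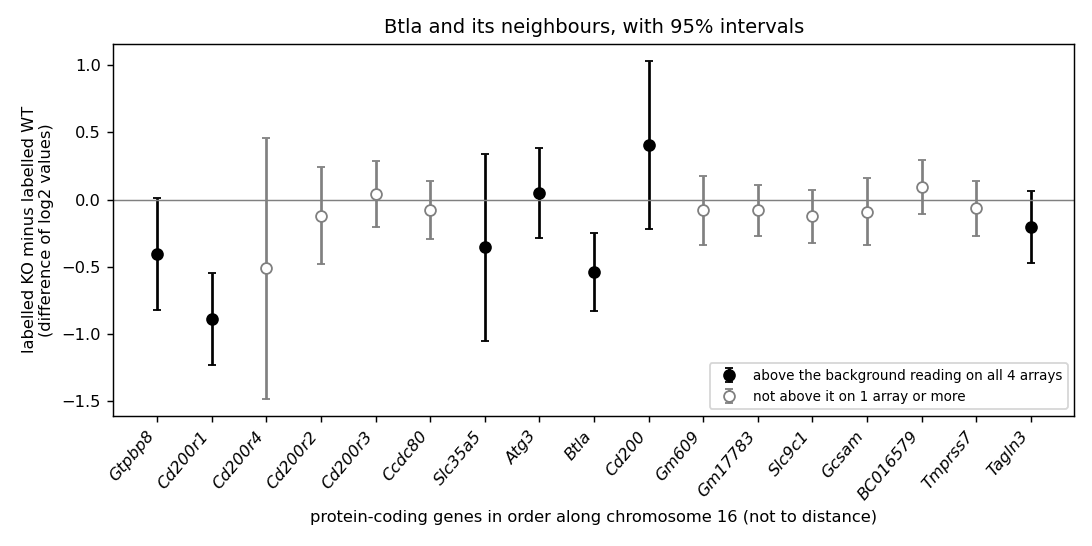
Difference, labelled KO minus labelled WT on the log2 scale (vertical axis), for Btla and the 8 protein-coding genes on each side in order along chromosome 16 (horizontal axis, not to distance). Bars are 95% limma intervals, and open points are genes not above the background reading on all 4 arrays. Cd200r1 at -0.89 and Btla at -0.54 have intervals below 0, and Atg3, between them and next to Btla, sits at 0.05. Gtpbp8, Slc35a5 and Tagln3 also lie below 0, with intervals that include 0.

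Genes around the receptors were read from lists chosen for their role. Of 17 ligand genes 16 were measured, and 0 rose and 0 fell in limma, with 8 positive and 8 negative differences. An unadjusted limma p under 0.05 was found for 2 genes that were lower in the arrays labelled KO (3.76% of all genes) and for 0 that were higher (6.32%). The 2 were Cd80 and Cd200r1, the latter a receptor gene that stands in the list as the partner of CD200. Cd80, a ligand of CTLA-4 and CD28 best known on antigen-presenting cells, read 7.98 and 7.79 in the arrays labelled WT and 7.17 and 7.34 in those labelled KO, a difference of -0.63 (SE 0.14, limma adjusted p 0.327). Cd86, the other ligand of the pair, read 11.53 and 10.93 against 10.86 and 10.71. Both were lower in each array labelled KO than in either array labelled WT, as were 3 of the 16 ligand genes and 17.5% of all genes. WT replicate 1 carried most of the Cd86 difference of -0.45 (SE 0.22, limma adjusted p 0.590), which was -0.14 without that array. Markers of dendritic cells, macrophages and monocytes are given here, and those of B cells beside Btla above. Their part in the Cd80 and Cd86 values was not tested. Of 7 dendritic cell markers 6, and of 11 macrophage and monocyte markers 10, lay below the background reading on all 4 arrays, Flt3, Itgax, Csf1r and Adgre1 among them. Siglech, at 5.71 to 5.82, was the dendritic cell marker above it, and Cd68 (5.47 and 5.02 against 5.79 and 5.66) was above it on 3 arrays. The mean of the dendritic cell list was 4.35 and 4.31 in the arrays labelled WT and 4.30 and 4.26 in those labelled KO. The macrophage and monocyte list had means of 4.44 and 4.33 against 4.39 and 4.40.

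Among 18 measured inhibitory receptors outside the set, 0 rose and 0 fell in limma, and 3 had an unadjusted limma p under 0.05, each lower in the arrays labelled KO, as for 3.76% of all genes. Klrg1, a cadherin-binding receptor of differentiated lymphocytes, read 8.80 and 8.99 in the arrays labelled WT and 8.23 and 8.38 in those labelled KO (difference -0.59, SE 0.14, limma adjusted p 0.353). Cd101 read 7.03 and 7.00 against 6.58 and 6.31 (-0.57, SE 0.14, limma adjusted p 0.351). Cd72, a C-type lectin known from B cells, read 6.89 and 7.04 against 6.65 and 6.53 (-0.37, SE 0.12, limma adjusted p 0.430). The groups do not overlap, with the arrays labelled KO lower, for 6 of the 18, against 17.5% of all genes. These 6 include the 3 above, which were picked by their p, and Siglecg, Btnl2 and Btn1a1, below the background reading on all 4 arrays. With the arrays labelled KO higher, the groups do not overlap for 2 of the 18, against 20.9% of all genes. Of the 18, 10 lay below the background reading on all 4 arrays, and the list median was -0.04.

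The 6 activating receptors and cytokines that share the ligands had 0 members past the threshold and 0 with an unadjusted limma p under 0.05. The smallest p belonged to Lta (difference 0.23, SE 0.13), Crtam (0.10, SE 0.09) and Icos (-0.11, SE 0.12), with limma adjusted p between 0.618 and 0.835. Of 14 measured signalling partners, all above the background reading on all 4 arrays, 0 passed in limma and 0 had an unadjusted p under 0.05. Sh2d1a, which encodes an adaptor of SLAM receptors, had 0.27 (SE 0.17), the phosphatase gene Ptpn22 -0.24 (SE 0.16) and the CSK anchor Pag1 -0.21 (SE 0.15). Ptpn6 and Ptpn11, the phosphatase genes that PD-1 and BTLA act through, read 11.07 and 11.47 against 11.22 and 10.81, and 8.67 and 8.88 against 8.72 and 8.83. The 10 genes of receptor trafficking and shedding gave 0 past the threshold and 0 with an unadjusted limma p under 0.05. Fbxo38, a ubiquitin ligase subunit that targets PD-1, had -0.24 (SE 0.12), Adam10, a protease that sheds LAG-3, -0.23 (SE 0.13) and Lrba, which protects CTLA-4 from lysosomal loss, -0.16 (SE 0.13).

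Of 15 measured transcription factors known to act on checkpoint genes, 0 passed in limma and 1, higher in the arrays labelled KO, had an unadjusted p under 0.05, a share near the 6.32% of all genes. That was Eomes, a T-box factor of cytotoxic cells, at 6.80 and 6.91 in the arrays labelled WT and 7.37 and 8.49 in those labelled KO (difference 1.07, SE 0.37, limma adjusted p 0.438). KO replicate 2 carried much of it, and without that array it was 0.51. Maf, a factor of regulatory and helper T cells, read 13.29 and 13.59 against 13.72 and 13.75 (0.29, SE 0.13), and Tox2 read 5.14 and 5.39 against 5.48 and 5.67 (0.31, SE 0.13), with limma adjusted p of 0.528 and 0.529. WT replicate 1 was the lowest array for 9 of the 15, against 24.3% of all genes, and the list median was 0.10. In the other lists that array was lowest for 1 of 16 ligand genes and 1 of 18 other inhibitory receptors. The counts were 2 of 6 activating receptors and cytokines, 6 of 14 signalling partners and 4 of 10 trafficking and shedding genes. Hmgb1, Pvrig, Lck, Ppp2ca and Tcf7 of these lists have no value here.

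**Figure D5:**
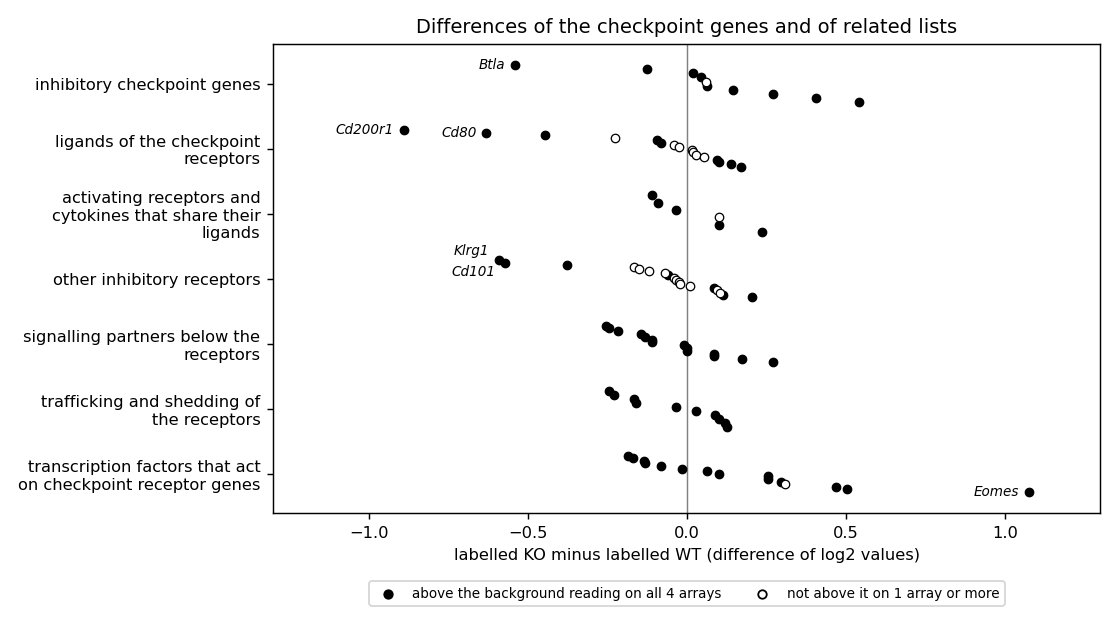
Difference of each measured gene, labelled KO minus labelled WT on the log2 scale (horizontal axis), for the 10 checkpoint genes and 6 related lists (rows). Filled points lie above the background reading on all 4 arrays, open points do not, and names mark genes with an unadjusted limma p under 0.05, at most 2 in a row. Most points lie near 0, with Cd200r1, Cd80, Klrg1, Cd101 and Btla to the left and Eomes to the right.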

How the data were processed

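The authors deposited 1 table of log2 values for 65528 transcript clusters and 4 arrays, made with RMA and Transcriptome Analysis Console per the submitters' processing notes. Versions, annotation and the genome build are not given in the sources read. Deposited values are rounded to 0.01, and the log base is taken from the use of RMA. Clusters were named through the platform annotation and RefSeq gene identifiers of GRCm38.p6, used for names, gene order and promoter windows. Of the clusters, 31037 had 1 gene, 1480 several and 33011 were not listed; clusters with several named none. The brightest cluster per gene was kept, which left 30492 genes with no filter on dim ones. Tests used limma 3.58.1 in R 4.3.3 (lmFit, eBayes with an intensity trend), tested on simulated data. No batch is given in the labels. The genes and lists were chosen with earlier results of these data known. All members, Bmi1 and the 3 genes of smallest p in each list are named; other genes were added for their role after their values were seen. Alternatives were median-centring, quantile normalization, a filter on dim genes (mean at or above 5.03), the mean of clusters, no trend, robust settings and leaving out each array.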

Additional observations from a re-analysis of the deposited data

How the results depend on the processing

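Of the 289 differences computed for the 29 genes named by rule under the 10 alternatives, 279 kept their sign and their side of the threshold, 10 changed sign, and 0 of the 10 checkpoint genes passed a limma adjusted p under 0.05 under any of them. Havcr2 has no value among the brighter genes. The filter on dim genes, no trend and robust settings alter a gene's SE and p but not its difference. The mean of clusters can alter it only for a gene with over 1 cluster, and median-centring shifts all genes alike. Much of the 279 was thus fixed in advance. None of the 29 genes passed the threshold in the main fit either. After a further quantile normalization Ctla4 had -0.0912 and Cd96 -0.0419. The other changes of sign came with 1 array left out: Ctla4 ranged from -0.16 to 0.25, Pdcd1 from -0.43 to 0.17, Lag3 from -0.065 to 0.105, Havcr2 from -0.025 to 0.145, Cd160 from -0.07 to 0.61 and Vsir from -0.02 to 0.15. The count of checkpoint genes with an unadjusted limma p under 0.05 was 1 throughout, except without WT replicate 3, where it was 4 (Btla, Tigit, Cd200 and Cd160), a range of 1 to 4. Their median difference ran from 0.0475 to 0.1625 with 1 array left out, highest without KO replicate 2, and was 0.0041 after quantile normalization. Over all genes, 2 passed, against 1 after median-centring, 13 among the brighter genes and 0 after quantile normalization, without a trend, with robust settings and without any 1 array (0 to 0), and the cause was not tested. With 1 array left out, 1 group holds a single array, which is assumed to vary like the others. No paired analysis was possible because the groups share only replicate number 1. Signal over background limits Lag3 and Havcr2.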
